A study of Saccharomyces cerevisiae with 24 samples.

Results

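The small-subunit processome is the large particle that forms in the yeast nucleolus on the 5′ part of the ribosomal RNA precursor and from which the small (40S) ribosomal subunit is made. The genes described here are protein-coding genes of its core complexes and of its enzymes. They were taken by gene name from a list of 47 names, of which 46 have a row under that name in both deposited tables, among 6304 genes with values. The list does not hold every gene of each complex, and complexes are counted here by their listed genes. Further early small-subunit factors form a list of their own. DBP4, a helicase of the list, has no row under that name and is not counted; RefSeq gives it as another name of HCA4, which is present and is described on its own. All 46 passed the filter on low values that left 4888 genes for testing, and none overlaps another protein-coding gene. The tables mark 44 of the 46 as ribosome biogenesis genes, among 171 entries so marked; NOP56 and RRP9 are not marked.

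The cells were Saccharomyces cerevisiae of the CEN.PK background with the Dim1 variants E85Q or D87E, or with wild-type Dim1 (WT). Dim1 is the enzyme that adds methyl groups to a pair of adjacent adenosines in 18S rRNA, close to its 3′ end. Cultures in sulfur-free medium with 1 mM methionine were sampled in log phase, and again after 2 h in sulfur-free medium without methionine, called starved here. The 6 groups were starved E85Q, starved D87E, starved WT, and E85Q, D87E and WT with methionine, each with 2 numbered strains, called isolates here (E85Q 623 and 625, D87E 887 and 888, WT 172 and 600), and each sample gave an mRNA library and a ribosome footprint library. The labels call the isolates biological replicates but give no experiment or day, so p-values measure the spread between these samples. The title of the series asks whether translation depends on sulfur through the methylation of 18S rRNA.

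Assembly of the processome is ordered. The UTP-A complex binds the nascent precursor, the UTP-B complex and the U3 particle follow, and U3 snoRNA then base-pairs with the precursor and guides its folding and its first cleavages. The MPP10 complex, the UTP-C complex, the GTPase BMS1 and a series of RNA helicases and nucleases complete the particle, which is then taken apart to release pre-40S. In yeast these genes are known as part of the ribosome biogenesis regulon, whose mRNAs rise with nutrients and fall when growth stops.

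The deposited values are RPKM, a read number scaled to gene length in kilobases and to 1e6 reads. Reads behind the scaling, recovered from the steps between low values, numbered 24.3 to 32.2 M (1e6) in mRNA libraries and 21.3 to 81.2 M in footprint libraries. The median of the reads behind a value of these genes was about 303 in starved footprints and 320 in starved mRNA, against 4129 and 2073 with methionine. The fewest were about 42 in mRNA and 46 in footprints, both for DHR2 in starved cells. RPKM gives a share of a library, so less mRNA of a gene per cell and more mRNA of other genes cannot be told apart. Differences are log2 values of RPKM + 1 from limma with Benjamini-Hochberg adjustment over all 4888 genes, called at an adjusted p below 0.05, with n = 2 per group and the fit's standard error written SE. Translational efficiency (TE) is the log2 footprint value minus the log2 mRNA value of the same sample.

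With methionine the 46 genes were expressed over a wide range. The proteins shared by U3 and the other box C/D snoRNPs stood highest. SNU13, whose product binds the kink-turn of the guide RNA and also belongs to the U4/U6.U5 tri-snRNP, had 310 and 320 RPKM of mRNA in E85Q, 304 and 313 in D87E and 292 and 345 in WT. NOP56, a scaffold protein of the same particles, had 344 and 329 RPKM in E85Q, 319 and 314 in D87E and 302 and 300 in WT. NOP58, its paralog and partner, had 238 and 245 RPKM in E85Q, 246 and 254 in D87E and 229 and 243 in WT. The genotypes overlapped in SNU13. In NOP58 E85Q and WT overlapped, and both D87E isolates stood above them. The helicase gene DHR2 was the lowest in footprints, at 14.3 and 14.3 RPKM in E85Q, 12.7 and 12.8 in D87E and 11.2 and 12.7 in WT. ECM16, also a helicase, had 17.9 and 19.9 RPKM of footprints in E85Q, 18.5 and 17.3 in D87E and 15.7 and 16.6 in WT. By the mean of both isolates DHR2 was lowest in mRNA in WT, with 16.6 and 16.1 RPKM in E85Q, 14.6 and 13.3 in D87E and 12.8 and 13.4 in WT, next to SAS10, which was below it in WT 600 at 11.4 RPKM, and UTP30. The median of the 46 was 47.7 and 47.4 RPKM of mRNA in E85Q, 40.9 and 41.6 in D87E and 38.9 and 37.1 in WT.

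Starvation lowered the mRNA of all 46 genes in each genotype. The median change was -2.79 on the log2 scale in E85Q, -2.41 in D87E and -2.30 in WT, against medians over all 4888 genes of 0.14, 0.41 and 0.40. Of all genes tested, 30.3% were called lower in E85Q, 25.5% in D87E and 26.7% in WT. In RPKM, the median gene kept 12.1% of its level with methionine in E85Q, 16.8% in D87E and 18.1% in WT. The summed RPKM of the 46 made up 0.0699% and 0.0704% of all summed mRNA RPKM in starved E85Q. In starved D87E it made up 0.0873% and 0.0743%, and in starved WT 0.0767% and 0.0803%. With methionine it made up 0.455% and 0.453% in E85Q, 0.42% and 0.407% in D87E and 0.388% and 0.381% in WT. Starved and fed libraries did not overlap in any genotype. All 46 falls in each genotype held under every alternative fit.

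**Figure D1:**
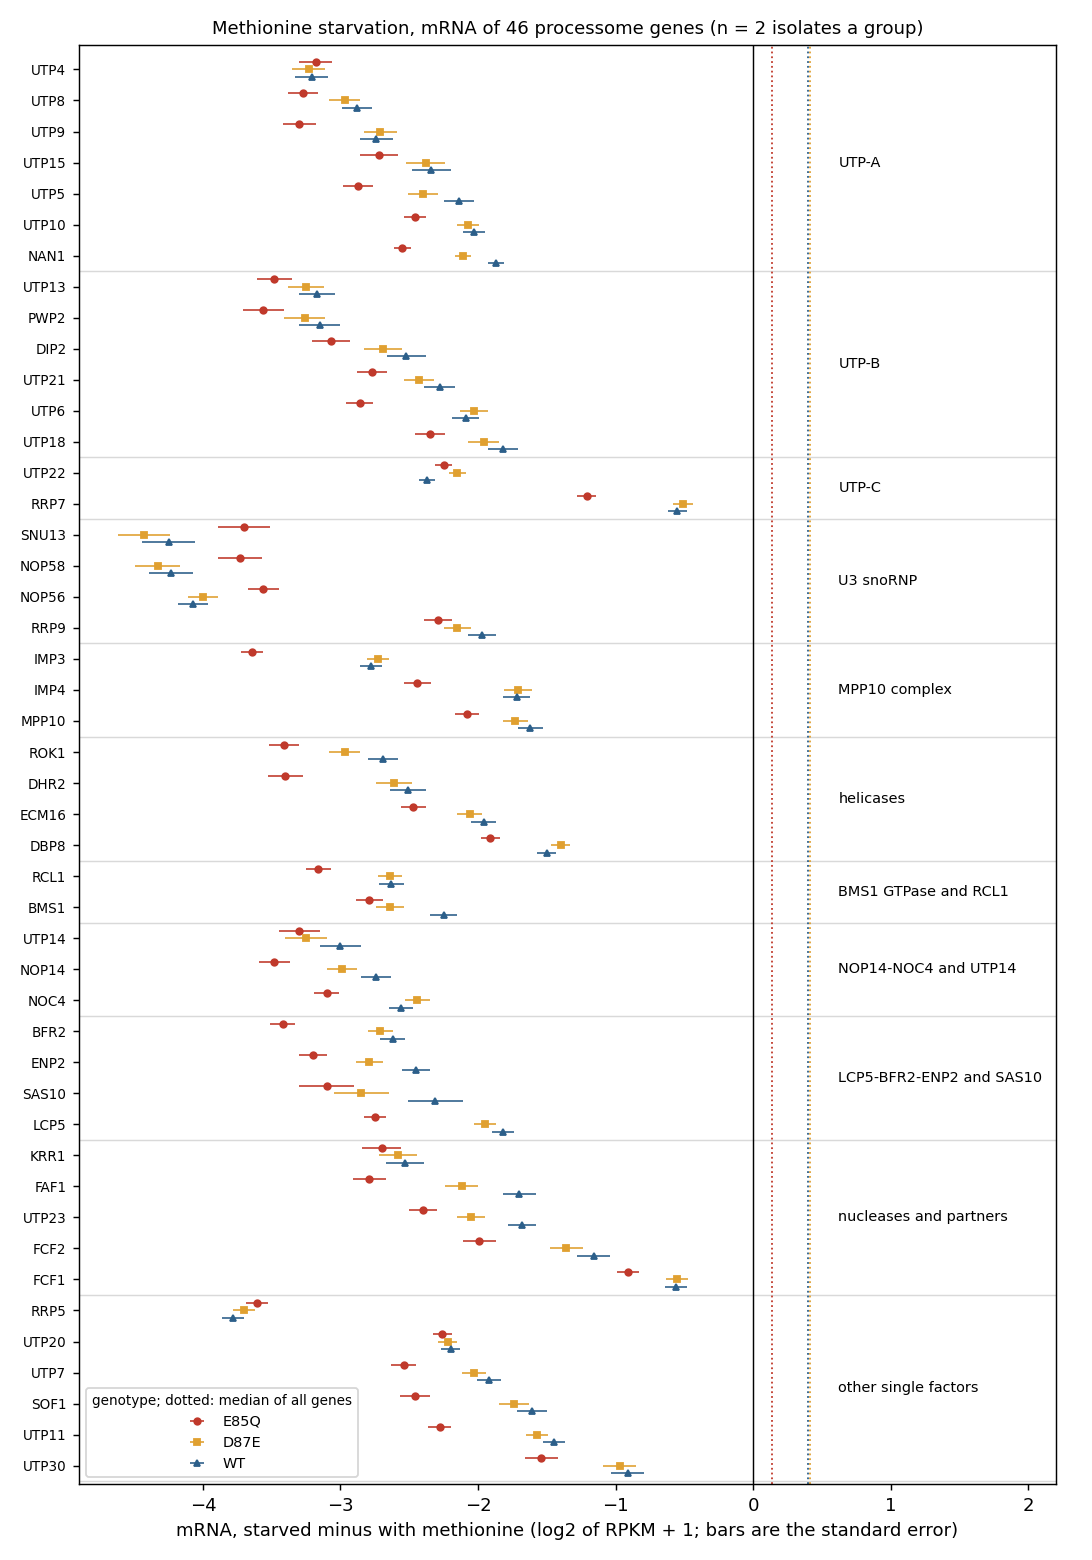
Change in mRNA on starvation (log2 of RPKM + 1) for each of the 46 genes, by complex, in E85Q, D87E and WT; points are the fitted differences between group means of 2 isolates and bars their standard error. Every point lies left of 0, the U3 genes SNU13, NOP58 and NOP56 lie farthest left in D87E and WT, and RRP7, FCF1 and UTP30 lie nearest to 0.

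On the log2(RPKM + 1) scale, on which all falls are ranked here, 3 genes of the U3 particle had the largest falls in D87E and WT, and NOP58 and SNU13 had the largest in E85Q. In RPKM itself the order in D87E and WT also began with these genes, but in E85Q DHR2 (3.94% kept), IMP3 (6.3%) and PWP2 (6.44%) kept less than NOP58 (7.15%), SNU13 (7.5%) and NOP56 (8.22%). SNU13 mRNA had 20.2 and 27.1 RPKM in starved E85Q, 17 and 10.4 in starved D87E and 16.3 and 15.2 in starved WT, so that 4.45% of the level with methionine was kept in D87E and 4.96% in WT. Its change was -3.70 in E85Q, -4.43 in D87E and -4.25 in WT (SE 0.19, limma adjusted p = 3.3e-08, 5.6e-09 and 7.5e-09). NOP58 had 16.2 and 18.4 RPKM in starved E85Q, 14.7 and 8.89 in starved D87E and 11.2 and 12.1 in starved WT. Its change was -3.73 in E85Q, -4.33 in D87E and -4.23 in WT (SE 0.16, limma adjusted p = 1e-08, 2.6e-09 and 3.1e-09). NOP56 had 25.2 and 30.1 RPKM in starved E85Q, 21.6 and 16.4 in starved D87E and 16.8 and 17.1 in starved WT, with changes of -3.56, -4.00 and -4.07 (SE 0.11). In all 3 genes the starved E85Q isolates stood above the starved WT isolates. RRP9, the WD-repeat protein specific to U3, fell less, with changes of -2.29 in E85Q, -2.15 in D87E and -1.97 in WT.

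The early-binding UTP-A and UTP-B complexes fell as whole sets. The 7 UTP-A genes had a median mRNA change of -2.87 in E85Q, -2.40 in D87E and -2.34 in WT, and the 6 UTP-B genes of -2.97, -2.56 and -2.40. UTP4, a WD-repeat protein of UTP-A with the largest fall of its complex in D87E and WT, had 4.67 and 4.89 RPKM in starved E85Q, 4.84 and 3.34 in starved D87E and 3.77 and 3.47 in starved WT, against 51.2 and 51.2, 46.5 and 46.2, and 43.1 and 40.5 RPKM with methionine. Its mRNA changed by -3.18, -3.23 and -3.21, nearly the same in E85Q, D87E and WT. PWP2, a WD-repeat protein of UTP-B, had 3.1 and 2.7 RPKM in starved E85Q, 4.22 and 2.7 in starved D87E and 3.05 and 3.78 in starved WT. With methionine PWP2 had 42.3 and 47.8 RPKM in E85Q, 40.4 and 41.7 in D87E and 38.8 and 37.3 in WT. Its change was -3.56 in E85Q, -3.26 in D87E and -3.15 in WT (SE 0.15, limma adjusted p = 6.4e-09, 8.8e-09 and 1.1e-08). UTP13, a further WD-repeat protein of UTP-B, changed by -3.48, -3.25 and -3.17 (SE 0.13), which differs from PWP2 by less than 1 SE in each genotype. NAN1, also called UTP17, and UTP18 had the smallest falls of their complexes in WT, with changes of -1.87 and -1.82.

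The 2 listed genes of the UTP-C complex were split. UTP22, the largest protein of UTP-C, changed by -2.25 in E85Q, -2.15 in D87E and -2.37 in WT. RRP7, its partner, kept 42.6% of its mRNA in E85Q, 69.9% in D87E and 68.1% in WT. RRP7 had 43.1 and 39 RPKM in starved E85Q, 57.2 and 53.7 in starved D87E and 50.9 and 53.7 in starved WT, against 99.6 and 93, 80.6 and 78.2, and 76.3 and 77.2 RPKM with methionine. Its change was -1.21 in E85Q, -0.51 in D87E and -0.55 in WT (SE 0.07, limma adjusted p = 5.4e-08, 2.7e-05 and 1.6e-05), and no starved value overlapped a value with methionine. RRP7 had the highest mRNA level per length of the 46 genes in 5 of the 6 starved libraries, and FCF1 in the remaining one, starved E85Q 625.

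FCF1, which carries the PIN nuclease fold, and UTP30, a factor related to ribosomal protein L1, fell less than all other genes but RRP7. UTP30 kept 31.8% of its mRNA in E85Q, 48.2% in D87E and 50% in WT. FCF1 mRNA had 41.7 and 45.4 RPKM in starved E85Q, 51.4 and 45.9 in starved D87E and 46.1 and 45.1 in starved WT, against 86.4 and 79.1, 68.9 and 74.1, and 64.1 and 72 RPKM with methionine. Its change was -0.91 in E85Q, -0.55 in D87E and -0.56 in WT (SE 0.08, limma adjusted p = 2.6e-06, 8.6e-05 and 6.8e-05). UTP30 had 8.16 and 6.66 RPKM in starved E85Q, 8.57 and 8.54 in starved D87E and 7.61 and 7.98 in starved WT, against 24.1 and 22.6, 19.2 and 16.2, and 17.4 and 13.8 RPKM with methionine. Its change was -1.54, -0.97 and -0.91 (SE 0.12). The response of RRP7, FCF1 and UTP30 was called lower in E85Q than in WT, by -0.67, -0.35 and -0.63, a larger fall. The median over all genes was -0.28 and 48.6% of them were called lower, so the value of FCF1 lay near the general shift.

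The remaining complexes lay between. In the MPP10 complex, IMP3, a relative of ribosomal protein S4, had 3.59 and 2.99 RPKM in starved E85Q, 4.94 and 5.04 in starved D87E and 4.89 and 4.71 in starved WT, against 53 and 51.6, 39.7 and 37.6, and 38 and 39.6 RPKM with methionine. IMP3 changed by -3.64 in E85Q, -2.73 in D87E and -2.78 in WT (SE 0.08, limma adjusted p = 4.1e-11 in E85Q). Its partners IMP4 and MPP10 changed by -2.44 and -2.08 in E85Q, -1.71 and -1.73 in D87E, and -1.72 and -1.62 in WT. RRP5, a long RNA-binding protein that serves both subunits, had 8.22 and 8.81 RPKM in starved E85Q, 8.45 and 7.07 in starved D87E and 6.56 and 6.85 in starved WT, against 112 and 119, 116 and 110, and 107 and 103 RPKM with methionine. RRP5 changed by -3.61, -3.70 and -3.78 (SE 0.08), among the 5 largest falls on the log2 scale in each genotype. The 4 helicase genes ROK1, DBP8, DHR2 and ECM16 had median changes of -2.93 in E85Q, -2.34 in D87E and -2.24 in WT. HCA4, the name under which RefSeq lists DBP4, had 2.82 and 2.74 RPKM in starved E85Q, 4.05 and 3.36 in starved D87E and 3.47 and 4.1 in starved WT, with mRNA changes of -3.68, -3.15 and -3.03.

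Ribosome footprints followed the mRNA. All 46 genes were called lower in E85Q, and 45 of 46 in D87E and in WT, with medians of -2.79, -2.62 and -2.41 against 0.13, 0.15 and 0.23 over all genes. Among all genes tested 30.6% were called lower in E85Q, 35% in D87E and 32.1% in WT. The summed footprint RPKM of the 46 made up 0.0526% and 0.0581% of all summed footprint RPKM in starved E85Q. In starved D87E it made up 0.0598% and 0.0522%, and in starved WT 0.0629% and 0.0579%. With methionine the share was 0.363% and 0.387% in E85Q, 0.355% and 0.351% in D87E and 0.328% and 0.333% in WT. On the log2(RPKM + 1) scale NOP58 had the largest fall in footprints in each genotype, with -3.60 in E85Q, -4.18 in D87E and -3.88 in WT (SE 0.19). In RPKM it led in WT alone: it kept 7.95% in E85Q, where DHR2 kept 6% and RCL1 6.84%, and 5.37% in D87E, where RCL1 kept 5.15%. Its footprints stood at 26 and 27.1 RPKM in starved E85Q, 21.5 and 13.4 in starved D87E and 23.8 and 16.5 in starved WT, against 343 and 325, 330 and 321, and 299 and 311 RPKM with methionine. NOP56 changed by -3.48, -4.07 and -3.67 and RRP5 by -3.54, -3.95 and -3.52 (SE 0.13 each). RCL1, the cyclase-like protein that binds the GTPase BMS1, was also among the 5 largest falls on the log2 scale in each genotype. Its footprints had 3.5 and 3.6 RPKM in starved E85Q, 2.84 and 1.98 in starved D87E and 3.72 and 2.84 in starved WT, against 51.1 and 52.7, 46.1 and 47.7, and 41.5 and 43 RPKM with methionine. The change was -3.54 in E85Q, -3.82 in D87E and -3.34 in WT (SE 0.12, limma adjusted p = 2.8e-09, 1.4e-09 and 4.3e-09). UTP13 in E85Q (-3.44), PWP2 in D87E (-3.54) and UTP4 in WT (-3.19) completed the 5.

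FCF1 was the exception in footprints. Its footprints had 51.2 and 52.5 RPKM in starved E85Q, 73.1 and 82.1 in starved D87E and 76.8 and 78.2 in starved WT, against 94.3 and 93.1, 79.1 and 76.7, and 79.2 and 72.8 RPKM with methionine. The starved values lay below those with methionine in E85Q and overlapped them in D87E and WT. The change was -0.84 in E85Q (SE 0.07, limma adjusted p = 2e-06), -0.01 in D87E (adjusted p = 0.92) and 0.03 in WT (adjusted p = 0.7). With each library centred on its median the value in WT became -0.18 (adjusted p = 0.029). RRP7 had the next smallest fall in each genotype in footprints, with 27.2 and 32.5 RPKM in starved E85Q, 37 and 29.8 in starved D87E and 33.3 and 29.8 in starved WT, against 77.4 and 73.7, 63 and 63, and 60.6 and 58.2 RPKM with methionine. Its change was -1.31 in E85Q, -0.90 in D87E and -0.89 in WT (SE 0.11). UTP11 in D87E (-1.17) and FCF2 in WT (-1.14) followed.

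**Figure D2:**
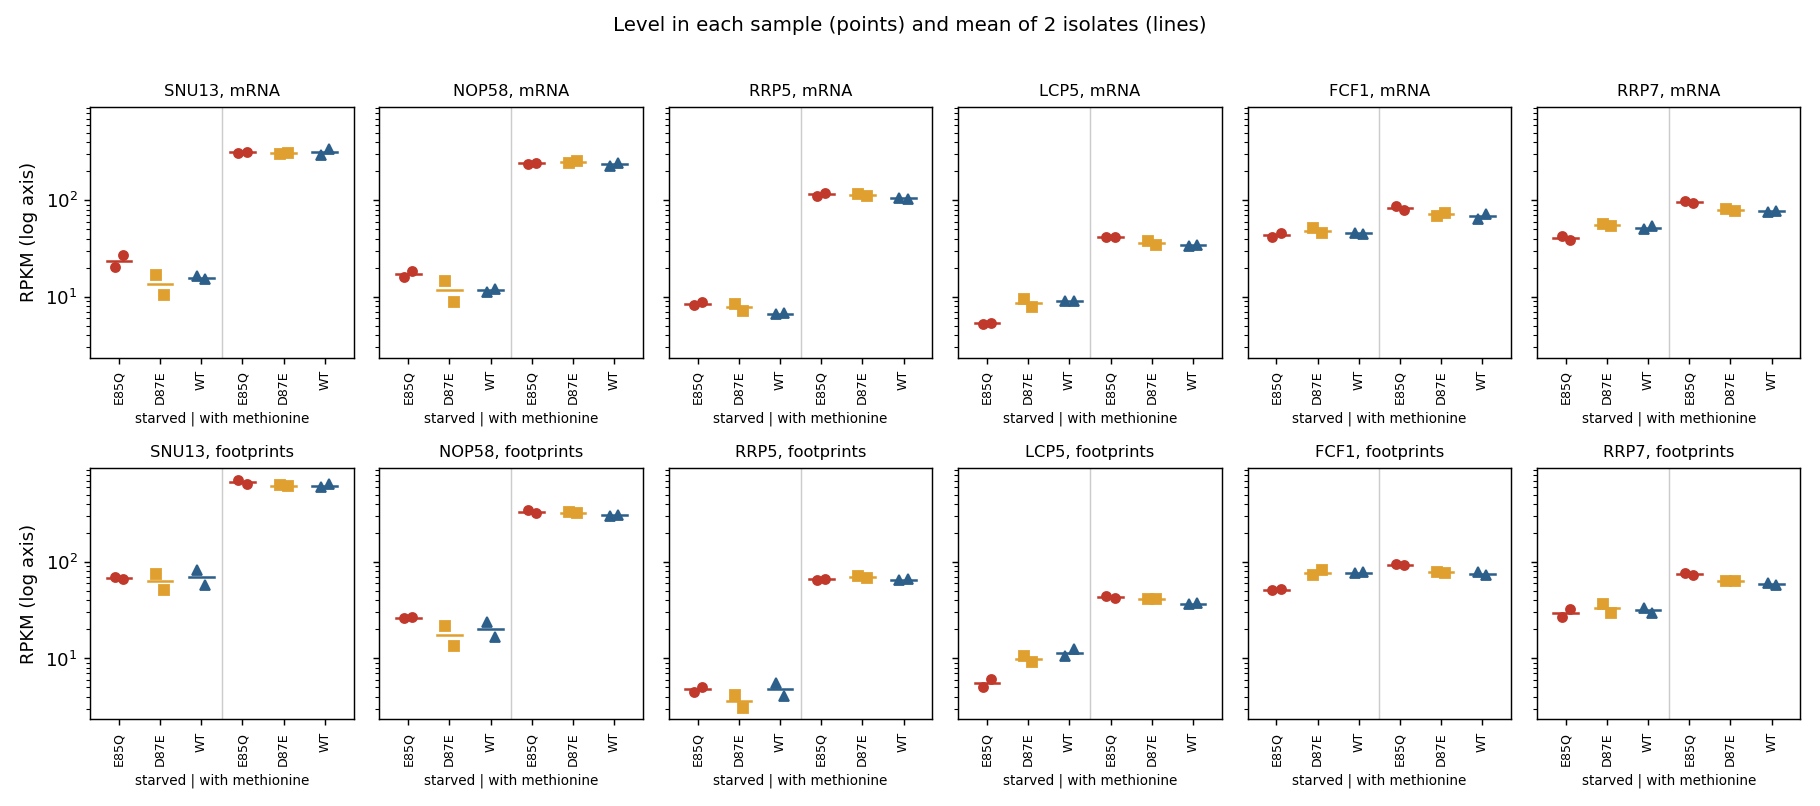
RPKM on a log axis of mRNA (top) and footprints (bottom) in each sample for 6 genes, with starved samples left of samples with methionine; points are isolates and lines the mean of the 2 isolates of a group. SNU13, NOP58 and RRP5 drop by over a decade in mRNA, LCP5 is lower in starved E85Q than in the other starved groups, and FCF1 footprints are lower in starved E85Q than in every other group.

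TE set a few of these genes apart. On starvation no gene of the 46 was called in TE in E85Q by limma, with 8 at an unadjusted p below 0.05 and 0 to 8 called under the alternative fits. In D87E 4 were called higher and 25 lower, where 13.1% and 47.9% of all genes were called. In WT 4 were called higher and 8 lower, where 16.7% and 36.6% of all genes were called. These counts depend on scaling. With each library centred on its median, 1 was higher and 0 lower in E85Q, where 184 and 166 of all 4888 genes were called. In D87E 10 were higher and 4 lower (1449 and 1146 of all genes). In WT 16 were higher and 3 lower (1432 and 1033 of all genes). SNU13, FCF1, RCL1 and MPP10 kept their calls in D87E and WT under every alternative.

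SNU13 TE rose in D87E and in WT. It stood at 1.75 and 1.28 in starved E85Q, 2.06 and 2.21 in starved D87E and 2.28 and 1.87 in starved WT, against 1.2 and 0.99, 1.03 and 0.96, and 1.04 and 0.89 with methionine. Each starved value lay above each value with methionine. The change was 1.14 in D87E and 1.11 in WT (SE 0.17, limma adjusted p = 0.00023 and 0.00038), and 0.42 in E85Q, which did not pass the test. FCF1 TE stood at 0.29 and 0.21 in starved E85Q, 0.5 and 0.83 in starved D87E and 0.72 and 0.78 in starved WT, against 0.13 and 0.23, 0.2 and 0.05, and 0.3 and 0.02 with methionine. Its change was 0.54 in D87E and 0.59 in WT (SE 0.12, limma adjusted p = 0.003 and 0.0022) and 0.07 in E85Q, not called.

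RCL1 lay at the other end. Its TE stood at -0.18 and -0.21 in starved E85Q, -0.71 and -1.03 in starved D87E and -0.24 and -0.43 in starved WT, against 0.12 and 0.25, 0.19 and 0.44, and 0.26 and 0.51 with methionine. Its change was -1.19 in D87E and -0.72 in WT (SE 0.13, limma adjusted p = 3e-05 and 0.001), and -0.38 in E85Q, not called. Here too starved and fed samples did not overlap. MPP10 changed by -0.79 in D87E and -0.66 in WT (SE 0.12, limma adjusted p = 0.00019 and 0.00089) and BMS1 by -0.62 in WT (adjusted p = 0.0014). MPP10 TE was -0.7 and -0.65 in starved E85Q, -0.95 and -1.05 in starved D87E and -0.59 and -0.97 in starved WT, against -0.26 and -0.36, -0.3 and -0.1, and -0.16 and -0.08 with methionine.

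Several smaller TE calls were less stable. In D87E DBP8, a DEAD-box helicase, changed by -0.59, UTP7, a WD-repeat protein, by -0.57 and UTP9 by -0.56. The DBP8 and UTP7 calls held under every alternative, and the UTP9 call was lost with median-centring (-0.29, limma adjusted p = 0.071). UTP11 and UTP23 changed by 0.40 and 0.34 in D87E. The UTP23 call was lost without D87E 888 starved (0.15) or D87E 887 with methionine (0.21), and with a pseudocount of 10 (0.01). It was also lost with no filter on low values, with only the groups compared, and without any 1 of the E85Q samples (0.34 each). The same held with 1% of the other medium's footprints subtracted (0.30). The UTP11 call was lost without D87E 888 starved (0.37, adjusted p = 0.067) or with methionine (0.34, adjusted p = 0.09). In WT the calls of UTP9 (-0.41), UTP7 (-0.35), NOP56 (0.40) and ECM16 (0.25) were each lost without at least 1 WT sample: UTP9 gave -0.20 without WT 600 starved, UTP7 -0.27 without the same sample, NOP56 0.20 without WT 172 starved and ECM16 0.16 without WT 172 with methionine. The WT calls of UTP9 and UTP7 were also lost with median-centring (-0.22 and -0.16), and that of UTP9 with a pseudocount of 10 (-0.06). Those of NOP56 and ECM16 were lost with only the groups compared, and with 1% of the other medium's footprints subtracted (0.21 and 0.20). The genes nearest to no change were UTP30, LCP5 and NOC4 in E85Q and LCP5, FAF1 and ROK1 in D87E. In WT they were UTP8, ENP2 and UTP4, and in each genotype all were within 0.05 of 0.

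**Figure D3:**
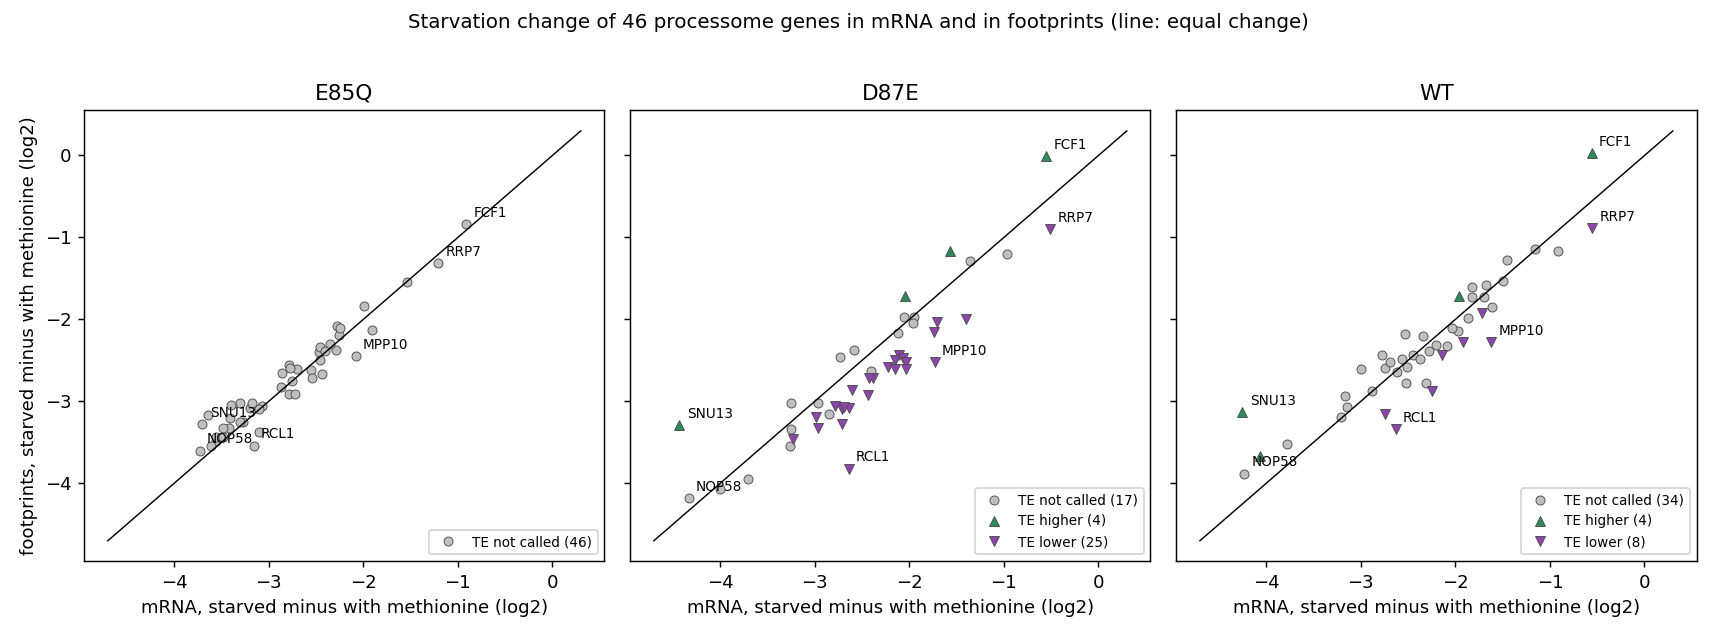
Change on starvation in mRNA (x axis) and in footprints (y axis), log2, for the 46 genes in E85Q, D87E and WT; the line marks equal change and symbols mark genes called higher or lower in TE. SNU13 and FCF1 lie above the line and RCL1 and MPP10 below it in D87E and WT, with 4 genes called higher and 25 lower in D87E, 4 and 8 in WT and none in E85Q.

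Levels of TE differed among the genes and tended to be lower in longer genes, with exceptions such as SAS10 (1833 bp). With methionine SAS10, also called UTP3, was highest in WT, with 0.71 and 1.01 in E85Q, 0.8 and 1.08 in D87E and 1.02 and 1.63 in WT, followed by SNU13 and UTP23. UTP20, the longest of the 46 at 7482 bp, was lowest, with -1.21 and -1.17 in E85Q, -1.08 and -1.05 in D87E and -1.19 and -1.11 in WT, followed by UTP10 (5310 bp) and RRP5 (5190 bp). Across the 46 genes, Pearson's r between log2 gene length and TE was -0.64 in starved E85Q, -0.69 in starved D87E and -0.65 in starved WT, and -0.67, -0.63 and -0.64 with methionine. Spearman's rho was -0.48, -0.59 and -0.55 in starved E85Q, D87E and WT, and -0.60, -0.56 and -0.60 with methionine. Genes of a library share its depth and its length scaling, so these values describe the set. No such value was computed over all genes, so whether the trend is particular to the set was not tested. The change in TE on starvation had r = -0.08 with log2 length in E85Q, -0.46 in D87E and -0.28 in WT.

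**Figure D4:**
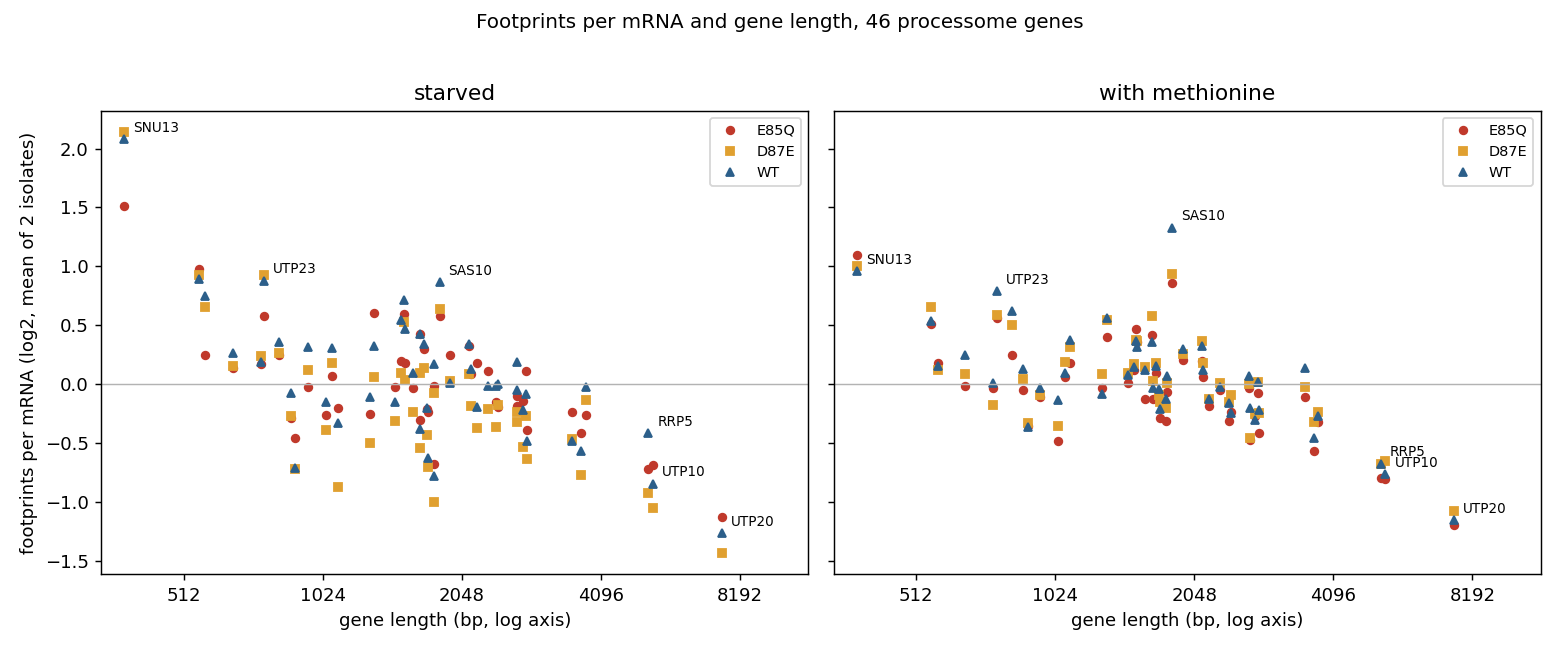
TE (log2, mean of 2 isolates) against gene length (bp, log axis) for the 46 genes, starved (left) and with methionine (right), in E85Q, D87E and WT. SNU13 is high and UTP20, UTP10 and RRP5 are low in both media, and the order of the 3 genotypes differs from gene to gene.

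Between E85Q and WT, mRNA of these genes was called higher with methionine, and in both directions in starved cells. With methionine 25 of the 46 mRNAs were higher in E85Q and none was lower, with a median of 0.29 against 0.11 over all genes; 22.4% of all genes were called higher and 6.2% lower. The count rests on single samples: it was 0 without E85Q 623, 12 without E85Q 625, 15 without WT 172, 4 without WT 600 (all with methionine), and 10 with median-centring. The largest differences were those of SAS10 (0.72), FCF2, which is recovered with FCF1 (0.57), UTP30 (0.56), BFR2, a partner of LCP5 (0.55), and FAF1, a small factor that binds KRR1 (0.55). SAS10 had 25.8 and 21.2 RPKM in E85Q and 16.7 and 11.4 in WT, without overlap (SE 0.20, limma adjusted p = 0.028). Each of these 5 calls was lost without E85Q 623 (0.58 for SAS10, 0.45 for FCF2, 0.51 for UTP30, 0.49 for BFR2 and 0.46 for FAF1), and all but that of BFR2 also without WT 600. The SAS10 call was also lost with median-centring (0.59, limma adjusted p = 0.066). Centred in this way, 315 of all 4888 genes were called higher in mRNA and 670 lower. In footprints with methionine 9 were higher and 0 lower, where 4.07% of all genes were called higher and 3.54% lower; the count fell to 0 without any 1 of the 4 samples compared and to 1 with median-centring. These included UTP23 (0.31), FCF1 (0.30), SOF1 (0.29), DBP8 (0.29) and ROK1 (0.28). With median-centring 99 of all 4888 genes were called higher in footprints and 225 lower. In TE none was called by limma, with 3 at an unadjusted p below 0.05 and 0 called under every alternative.

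In starved cells the mRNA of 6 genes was higher and that of 18 lower in E85Q than in WT, with a median of -0.20 against -0.17 over all genes. Of all genes 15.7% were called higher and 45.5% lower, 61.1% in either direction, so the 46 did not exceed the background in either direction. With median-centring the split was 8 higher and 9 lower, where 1502 of all 4888 genes were called higher and 1281 lower. The 6 higher genes were NOP56 (0.67), SNU13 (0.54), NOP58 (0.53), UTP4 (0.32), RRP5 (0.30) and UTP22 (0.29). NOP56 had 25.2 and 30.1 RPKM in starved E85Q and 16.8 and 17.1 in starved WT (SE 0.11, limma adjusted p = 0.00054). The SNU13 call was lost without E85Q 625 (0.34), WT 172 (0.59, adjusted p = 0.068) or WT 600 (0.49). At the other end, LCP5, which forms a module with BFR2 and ENP2, had 5.28 and 5.32 RPKM in starved E85Q and 8.97 and 8.98 in starved WT, a difference of -0.66 (SE 0.08, limma adjusted p = 6.4e-05). DHR2 had 0.66 and 0.627 RPKM in starved E85Q and 1.44 and 1.5 in starved WT, a difference of -0.59 (SE 0.13, limma adjusted p = 0.0029) that was lost with a pseudocount of 10 (-0.11). UTP11 had 10.2 and 10.7 RPKM in starved E85Q and 15.3 and 15.9 in starved WT, a difference of -0.54 (SE 0.08). The count of 24 became 14 without starved E85Q 625 and 15 without starved WT 600.

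In starved footprints 2 genes were higher and 23 lower in E85Q, where 20.6% and 32.5% of all genes were called. The centred split was 6 and 15, where 1542 and 1104 of all 4888 genes were called. LCP5 footprints had 5.1 and 6.14 RPKM in starved E85Q and 10.5 and 12.4 in starved WT, a difference of -0.91 (SE 0.10, limma adjusted p = 0.00012). FAF1 differed by -0.64, IMP4 by -0.60, FCF1 by -0.57 and UTP11 by -0.56, and these 5 calls held under every alternative. UTP22 and UTP4, the 2 higher genes, both differed by 0.44. UTP22 footprints had 9.24 and 11 RPKM in starved E85Q and 7.87 and 6.54 in starved WT. In TE 3 genes were higher and 5 lower in starved E85Q than in starved WT, where 24% and 12% of all genes were called. The centred split was 1 and 11, where 866 and 807 of all 4888 genes were called. SNU13 TE differed by -0.56 and FCF1 TE by -0.50 (SE 0.17 and 0.12, limma adjusted p = 0.027 and 0.01); UTP9 (0.39), DHR2 (0.37) and NOP56 (-0.35) completed the 5 largest. The count of 8 became 4 without starved E85Q 623 or WT 172 and 1 without starved E85Q 625. Without starved E85Q 625 all 5 of these calls were lost, at -0.33 for SNU13, -0.46 for FCF1, 0.45 for UTP9, 0.39 for DHR2 and -0.35 for NOP56. Those of SNU13, UTP9 and NOP56 were also lost with no filter on low values or with only the groups compared. Those of UTP9 and DHR2 were lost with a pseudocount of 10 (0.14 and 0.07), and that of UTP9 with median-centring (0.32).

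**Figure D5:**
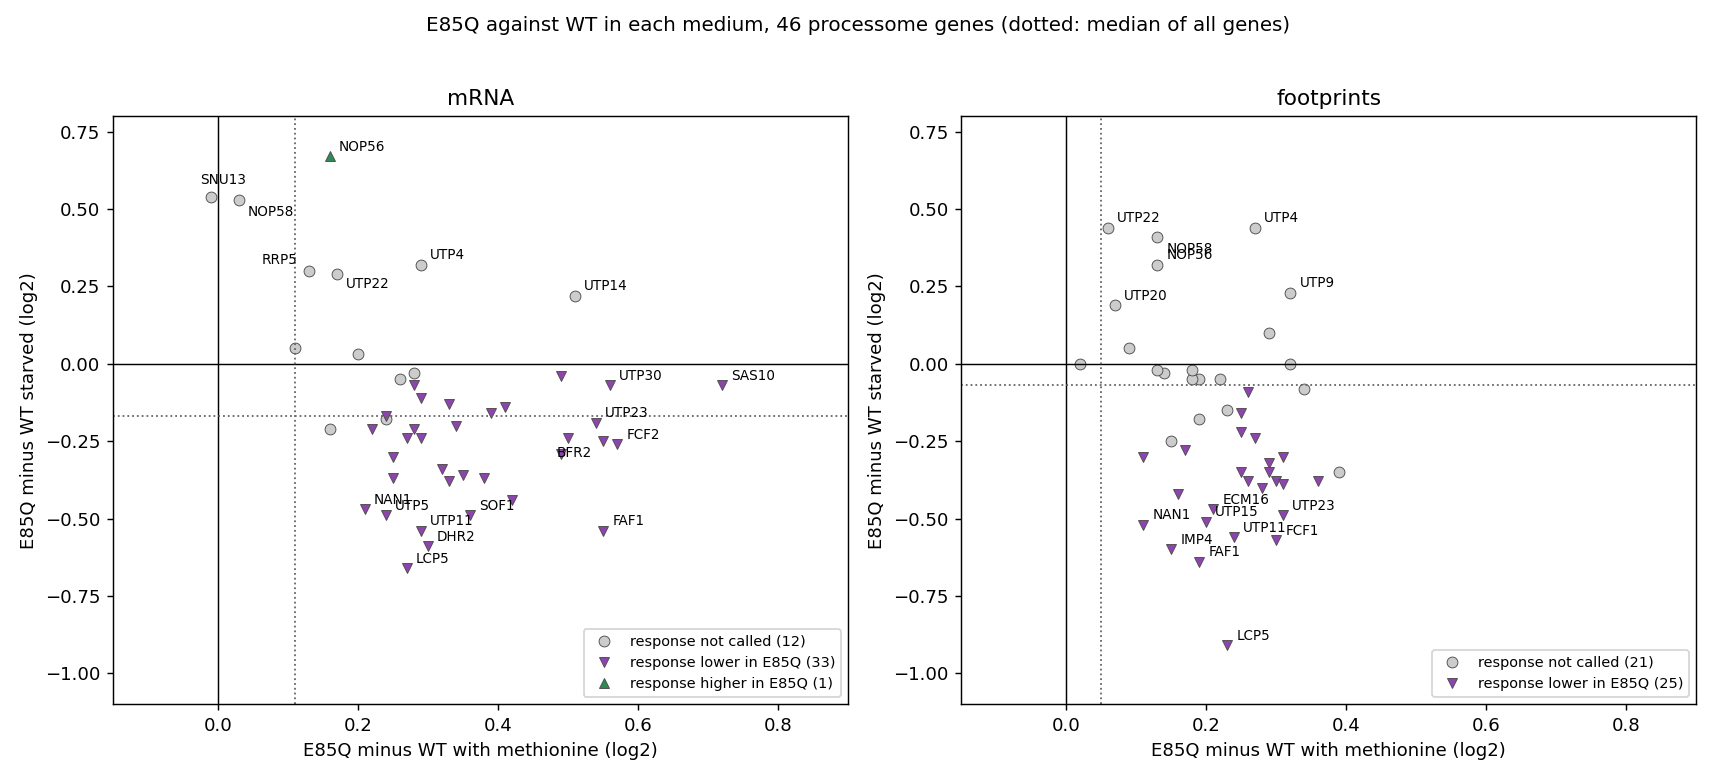
Difference between E85Q and WT with methionine (x axis) and starved (y axis), log2, in mRNA (left) and footprints (right) for the 46 genes; symbols mark the test of the difference between the starvation responses, and dotted lines the median of all genes. Most genes lie right of 0 and below 0, with 33 called lower and 1 higher in mRNA and 25 lower in footprints, while NOP56, SNU13 and NOP58 lie highest in mRNA.

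The starvation response itself was tested between genotypes. The mRNA response of 33 genes was lower in E85Q than in WT, a larger fall, and that of 1, NOP56, was higher, a smaller fall, with a median difference of -0.54 against -0.28 over all genes. Of all genes 48.6% were called lower and 11.8% higher, 60.4% in either direction. The centred split was 17 lower and 5 higher, where 986 of all 4888 genes were called lower and 1342 higher. FAF1 differed most, by -1.08: it had 3.21 and 2.89 RPKM in starved E85Q and 4.3 and 5.5 in starved WT, against 28.6 and 25.2 in E85Q and 19.2 and 17.1 in WT with methionine (SE 0.17, limma adjusted p = 0.00048). LCP5 (-0.93), DHR2 (-0.88), IMP3 (-0.86) and SOF1, a WD-repeat protein (-0.85), followed, and these 5 held under every alternative. By complex, all 4 helicase genes, all 3 MPP10 complex genes, all 4 of LCP5, BFR2, ENP2 and SAS10, and both BMS1 and RCL1 were called lower. So were 5 of 7 UTP-A and 4 of 6 UTP-B genes, and none of the 4 listed U3 genes. These counts by complex are uncentred and stand beside the 48.6% of all genes called lower. The 17 genes called lower when centred are too few to hold all of them, and were not counted by complex. In footprints 25 were lower and 0 higher, where 27.7% and 13.8% of all genes were called, led by LCP5 (-1.14), FCF1 (-0.87), FAF1 (-0.84), UTP23 (-0.81) and UTP11 (-0.80).

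Against D87E, the mRNA response of 27 genes was lower in E85Q and that of 3 higher. Of all genes 47.7% were called lower and 10% higher, 57.7% in either direction. The centred split was 8 lower and 4 higher, where 914 of all 4888 genes were called lower and 1212 higher. E85Q enters both comparisons, so they are not independent. IMP3 (-0.91), UTP6, a repeat protein of UTP-B (-0.83), and LCP5 (-0.80) differed most and held under every alternative, while DHR2 (-0.79) lost its call with median-centring (-0.48, adjusted p = 0.055). The 3 higher genes were SNU13 (0.73), NOP58 (0.60) and NOP56 (0.44). The SNU13 call was lost without any 1 of 6 samples, from 0.41 without starved D87E 888 upwards. The count of 30 became 19, all lower, without D87E 888 or E85Q 623 with methionine. In footprints 9 were lower and 2 higher (18.8% and 16.4% of all genes), led by UTP11 (-0.91), FCF1 (-0.83), LCP5 (-0.78), UTP23 (-0.68) and IMP4 (-0.64). This count was between 5 and 7 without D87E 887, D87E 888 or E85Q 623 with methionine or without starved E85Q 625, and 17 without starved D87E 887.

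In TE the response of 2 genes was higher in E85Q than in WT, where 17.4% of all genes were called higher. They were UTP6 (0.44, SE 0.13, limma adjusted p = 0.039) and DHR2 (0.42, SE 0.14, limma adjusted p = 0.05). With median-centring neither was called (0.30 and 0.28) and 2 others were lower. Centred, 373 of all 4888 genes were called higher and 389 lower. The DHR2 call was also lost with the isolate as a block (limma adjusted p = 0.074), a pseudocount of 10 (0.11), no filter, no intensity trend or carry-over subtracted. It was lost without any 1 of the E85Q or WT samples too (0.37 to 0.48). The UTP6 call was lost with a pseudocount of 10 (0.24) and with only the groups compared (limma adjusted p = 0.06). It was also lost without 1 of several samples, at 0.35 without E85Q 623 with methionine. Against D87E 13 were higher and 1, SNU13, lower, where 32.9% and 4.48% of all genes were called. The centred split was 2 higher and 3 lower, where 506 of all 4888 genes were called higher and 520 lower. RCL1 (0.80, SE 0.18, limma adjusted p = 0.0078) and UTP6 (0.71) kept their calls under every alternative. UTP22 (0.61) and UTP9 (0.61) lost theirs with median-centring, and SNU13 (-0.72) lost its call without 6 of the samples in turn. The count of 14 became 6 or 7 without E85Q 623, D87E 887 or D87E 888 with methionine and 9 without starved E85Q 625.

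No gene of the 46 was called between D87E and WT, which does not show that the genotypes are alike. limma called 0 of the 46 in mRNA, footprints or TE, in either medium or in the starvation response. At an unadjusted p below 0.05 there were 2 in starved mRNA, 21 in starved footprints and 19 in starved TE. With methionine there were 4, 7 and 1, and in the response 6, 25 and 11. Genes at this threshold were not counted over all 4888 genes, here or in the other comparisons, so an excess over the background was not tested. Of all 4888 genes, 0% were called in each direction in mRNA and 0.0614% in footprints with methionine, all lower, and at most 0.143% in 1 direction in footprints or TE. Under the alternatives the counts were 0 to 6 in starved mRNA, 0 to 5 in starved footprints and 0 to 4 in starved TE, with the highest in mRNA and footprints without starved D87E 888 and that in TE without starved WT 600. In starved footprints 40 of the 46 estimates were below 0, with a median of -0.19 against -0.06 over all genes. The same median was -0.18 for the 60S factors and -0.17 for the late pre-40S factors described below.

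Other genes of ribosome production give the setting. The 26 further early small-subunit factors had a median mRNA change on starvation of -2.08 in E85Q, -1.55 in D87E and -1.51 in WT, with 24, 23 and 22 called lower. The 13 late pre-40S factors, DIM1 among them, had -2.01, -1.39 and -1.40, and the 65 factors of the large (60S) subunit -2.89, -2.59 and -2.38, with all 65 called lower in each genotype. The 126 ribosomal protein genes had -2.35 in E85Q, -3.82 in D87E and -4.13 in WT. In the response E85Q minus WT, 113 ribosomal protein mRNAs were called higher and 0 lower (median 1.66), against 1 higher and 33 lower among the 46 (median -0.54) and 0 and 41 among the 65 (median -0.45). Of all mRNA RPKM, ribosomal protein genes accounted for 6.19% and 8.13% in starved E85Q and 2.3% and 2.05% in starved WT. This larger share moves with the difference between E85Q and WT in starved cells, and its part in the values of the 46 genes was not tested. DIM1 mRNA had 17.2 and 17.7 RPKM in starved E85Q, 18.1 and 15.8 in starved D87E and 16.8 and 16.4 in starved WT, against 92.1 and 91.2, 84.4 and 79.8, and 78 and 77.4 RPKM with methionine. Starved DIM1 mRNA, that of the gene that carries the alleles, was not called between genotypes. With methionine both E85Q isolates stood above both WT isolates, also in footprints (85.7 and 86.6 against 74.5 and 74.3 RPKM). Starved DIM1 footprints had 16.4 and 15.7 RPKM in E85Q and 21.9 and 19.3 in WT.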

How the data were processed

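The authors deposited a table of mRNA RPKM and a table of footprint RPKM, each with a column for each of the 12 samples. Per the labels' protocols, total RNA was depleted of rRNA and made into stranded libraries, and both libraries of a sample came from the same biological sample; the footprint table is described there as 18 to 34 nt and both as masked. Per the submitters' processing notes, Bowtie 1.1.2, TopHat2 2.1.1 and sacCer3 were used, with no role given. Which positions were masked and which reads enter the scaling is not given in the sources used here, and either could shift RPKM between libraries.

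Values were used as log2(RPKM + 1), a scale that understates changes of low genes, with no further scaling. The filter on low values asked for a mean RPKM of 5 or more in each assay and left 4888 of 6304 genes. The package limma (3.58.1, in R 4.3.3) fitted the means of the 6 groups, for mRNA, footprints and TE, and 10 comparisons were tested two-sided by eBayes with its variance prior trended on intensity, with Benjamini-Hochberg adjustment over all tested genes. Tables were handled in Python 3.11.15 with pandas 2.3.3 and numpy 2.4.6, and plots drawn with matplotlib 3.10.9. The naming rule takes the 5 genes with the largest called changes of each comparison and measure (in each direction for starvation), the 3 with the smallest changes on starvation, and the 3 highest and 3 lowest in WT with methionine in mRNA, footprints and TE; DIM1 is given once, and further genes named were chosen after their values were seen. The genes and lists were chosen with earlier results of these data known. Lists are described by counts and medians.

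Depth was recovered from the steps between low RPKM values; 67.6 to 80.6% of values of up to 20 reads were whole within 0.05 of a read, under a fitted 33 bases left out of each gene, and no test rests on these reads. Alternatives were pseudocounts of 0.1 and 10, no filter on low values, libraries centred on their median, no intensity trend, only the groups compared in the fit, the isolate as a replicate block, 1% of the same isolate's footprints in the other medium subtracted, and each of the 12 samples left out. The block applied only to starvation changes and responses, and the subtraction only to footprints and TE. The isolate number pairs starved and fed samples, since both come from the same numbered strain. Deviations of paired samples from their group means correlated across genes with r = 0.17 in E85Q, -0.05 in D87E and -0.18 in WT for mRNA, and 0.41, 0.05 and -0.02 for footprints. No sequences were used.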

Additional observations from a re-analysis of the deposited data

Results flagged for a closer look

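The starvation response differed between genotypes by a test of the difference itself, with limma and Benjamini-Hochberg adjustment, in the following results. In mRNA, E85Q differed from WT in 34 of the 46 genes, where 60.4% of all genes differed, and the named ones were FAF1 (-1.08 on the log2 scale), LCP5 (-0.93), DHR2 (-0.88), IMP3 (-0.86) and SOF1 (-0.85). E85Q differed from D87E in 30 (57.7% of all genes), among them IMP3 (-0.91), UTP6 (-0.83), LCP5 (-0.80), DHR2 (-0.79) and SNU13 (0.73). In footprints, E85Q differed from WT in 25 (41.4% of all genes), led by LCP5 (-1.14), FCF1 (-0.87), FAF1 (-0.84), UTP23 (-0.81) and UTP11 (-0.80). E85Q differed from D87E in 11, a share below the 35.1% of all genes, led by UTP11 (-0.91), FCF1 (-0.83), LCP5 (-0.78), UTP23 (-0.68) and IMP4 (-0.64). In TE, E85Q differed from WT in 2, UTP6 (0.44) and DHR2 (0.42), a share below the 21.9% of all genes. E85Q differed from D87E in 14, a share below the 37.4% of all genes, led by RCL1 (0.80), SNU13 (-0.72), UTP6 (0.71), UTP22 (0.61) and UTP9 (0.61). The comparisons share E85Q, so a gene that appears in both is not seen there independently. With 2 samples in a group, single samples were not tested as outliers.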

How the results depend on the processing

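Of 30 counts of called genes, 17 moved by over 1.5 times under at least 1 alternative, and of 127 results on named genes 115 were called, of which 31 lost the call under some alternative and 0 changed sign. The replicate block was fitted only for the starvation changes and the responses, not for genotypes within a medium. Among these it moved no count by over 1.5 times. Of the named calls there it ended that of DHR2 in TE (E85Q minus WT response, limma adjusted p = 0.074). Centring moved the median mRNA change of all genes on starvation from 0.14 to 0.05 in E85Q, 0.41 to 0.01 in D87E and 0.40 to -0.00 in WT. Counts of called genes under the alternatives other than leaving out a sample were, for E85Q minus WT with methionine, 39 (pseudocount 10) and 10 (centred) in mRNA, against 25, and 4 (pseudocount 0.1), 19 (pseudocount 10), 1 (centred) and 23 (groups compared) in footprints, against 9. For E85Q minus WT starved they were 15 in mRNA (pseudocount 10), and 3 (pseudocount 10), 5 (no filter) and 3 (groups compared) in TE. For D87E minus WT starved footprints the count was 1 (no filter). For the starvation change in TE they were 19 (pseudocount 10) and 19 (centred) in WT, 14 (centred) in D87E, and 1 (pseudocount 0.1), 8 (pseudocount 10), 1 (centred) and 2 (carry-over subtracted) in E85Q. For the response E85Q minus WT they were 22 in mRNA (centred), and 1 in TE with no filter, no trend or carry-over subtracted. For the response E85Q minus D87E they were 12 in mRNA and 5 in TE (both centred). The cause was not tested.

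With each sample left out in turn, E85Q minus WT with methionine ranged from 0 to 37 in mRNA and 0 to 15 in footprints. E85Q minus WT starved ranged from 14 to 31 in mRNA and 1 to 12 in TE. D87E minus WT starved ranged from 0 to 6 in mRNA, 0 to 5 in footprints and 0 to 4 in TE. The response E85Q minus D87E ranged from 19 to 36 in mRNA, 5 to 17 in footprints and 6 to 17 in TE. The response E85Q minus WT ranged from 0 to 4 in TE, and the response D87E minus WT from 0 to 1 in footprints and 0 to 2 in TE. The starvation change in TE ranged from 0 to 1 in E85Q and 18 to 29 in D87E.

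Signs changed in 11 results, none of them called. FCF1 footprints on starvation became -0.18 in WT when centred (adjusted p = 0.029), with -0.03 to 0.09 in WT and -0.09 to 0.08 in D87E with samples left out. TE on starvation in WT became -0.05 (pseudocount 10) and -0.10 (carry-over) for UTP8, -0.12 and -0.06 for ENP2, and -0.11 (carry-over) for UTP4, with -0.11 to 0.13, -0.13 to 0.16 and -0.06 to 0.10 with samples left out. In E85Q it became 0.02 (pseudocount 0.1) and 0.05 (centred) for UTP30, -0.02 (pseudocount 10) and -0.09 (carry-over) for LCP5, and -0.20 and -0.11 for NOC4, with -0.07 to 0.07, -0.11 to 0.11 and -0.04 to 0.06. In D87E it became 0.00 (pseudocount 0.1) and 0.26 (centred, adjusted p = 0.042) for LCP5, 0.11 (pseudocount 10) and 0.23 (centred) for FAF1, and 0.22 (centred) for ROK1, with -0.08 to 0.05, -0.09 to 0.00 and -0.14 to 0.04. DHR2 rests on the fewest reads, about 42 in starved mRNA and 46 in starved footprints.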

Other observations

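A few genes of the set, chosen after their values were seen, fell by nearly the same amount in every genotype. UTP20, a long repeat protein that spans the particle, had 11.1 and 11.3 RPKM of mRNA in starved E85Q, 11.8 and 11 in starved D87E and 10.4 and 11.2 in starved WT, against 54.5 and 60.6, 58.3 and 54.9, and 54.8 and 51.8 RPKM with methionine. Its change was -2.26 in E85Q, -2.22 in D87E and -2.20 in WT, and the response differed between E85Q and WT by -0.06 (SE 0.10). KRR1, a KH-domain protein, changed by -2.70 in E85Q, -2.58 in D87E and -2.53 in WT. Neither was called in the mRNA response between genotypes.

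Without NOP56, NOP58 and SNU13, the other 43 genes had 0.0594% and 0.0577% of all mRNA RPKM in starved E85Q and 0.0691% and 0.0725% in starved WT, against 0.322% and 0.319% in E85Q and 0.264% and 0.25% in WT with methionine. On this share E85Q stood below WT when starved and above it with methionine, with no overlap of isolates in either medium.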
